A study of Drosophila melanogaster with 4 samples.

Results

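The gene tramtrack (ttk) and its flanks on chromosome arm 3R of Drosophila melanogaster held 28 of the 16117 peaks of a genome-wide map of binding by the homeodomain protein Distal-less (Dll). The map was made by ChIP-seq, in which chromatin is precipitated with an antibody and its DNA is sequenced. Animals were taken as white prepupae, when metamorphosis begins. The peaks were those of 3R whose midpoint lies from 27500000 to 27600000 in FlyBase release 5. The locus was chosen by its peak scores and peak number, with one of the 10 highest peaks of the list beside ttk. Peak number, width and score of the locus are therefore given as a description, with no test.

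The series holds 2 libraries of Dll ChIP DNA, made with an affinity-purified rabbit polyclonal antibody against Dll, and 2 libraries of input DNA, which is sheared chromatin without precipitation. All 4 come from white prepupae of the strain Y cn bw sp. Every library shares a genotype with y[1] and oc[R3.2] on the X, with Gr22b[1], Gr22d[1] and cn[1] as well as CG33964[R4.2] and then bw[1] with sp[1] on chromosome 2, and with LysC[1] and lab[R4.2] followed by MstProx[1], GstD5[1] and finally Rh6[1] on chromosome 3. No animal without Dll is among the samples, and chromatin came from whole prepupae as far as the labels tell, so cells in which Dll bound are mixed with all others. The outcome is 1 list of peaks for the whole series. It has no values per library, so read depth is unknown and no spread between replicates can be given. Whether the replicates were separate collections of animals is not given in the sources used here. Each peak has 1 score from the peak caller MACS whose scale the file does not name, so scores rank peaks and a ratio of scores is no fold of binding.

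Dll is needed for the distal parts of legs and antennae, and its homeodomain recognises short AT-rich sites. The gene ttk encodes a transcriptional repressor with a BTB domain, through which such proteins pair, and zinc fingers that contact DNA. Alternative splicing gives the proteins Ttk69 and Ttk88, which differ in their zinc fingers. Ttk is known for holding back neuronal fate in the eye and in sensory bristles, where its level sets which daughter cell becomes a neuron, and for shaping tracheal tubes. It was first found as a protein that binds control sequence of the pair-rule gene fushi tarazu (ftz). White prepupae are at a stage when imaginal discs turn into adult legs, wings and antennae and when sensory organs form.

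Gene positions came from a RefSeq gene table of release 6 and were brought to release 5 by subtracting 4174278 bp, a difference stated for 3R. The table gives no strand, so genes are described here by their low-coordinate and high-coordinate ends and not by their start. With that difference, the low ends of the 3398 protein-coding genes of 3R lay inside peaks most often when moved by 300 bp into the gene (372 ends). The high ends did so when moved by 380 bp into the gene (371 ends). The profiles of low and high ends were close to mirror images of each other, and the axis of best fit lay 20 bp from the stated difference. Axes were tried only up to 500 bp to either side, so this speaks to errors within that range. A count of all gene ends inside peaks, which had been planned as the check of the difference, was not higher there: 621 of 8292 ends lay in peaks, against 618 to 820 at shifts of up to 100 kb. The mirror image was used as the check instead, after these values were seen.

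**Figure D1:**
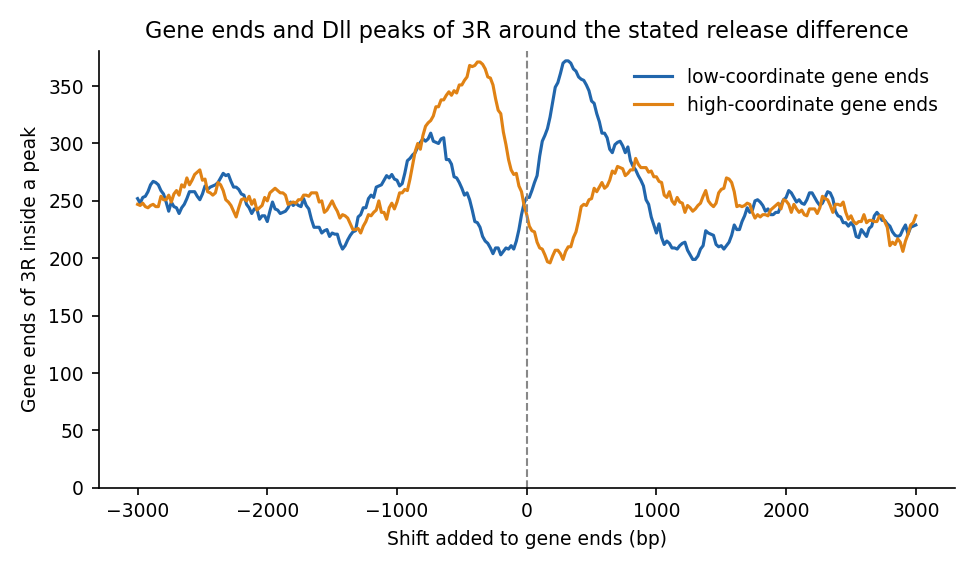
Number of protein-coding gene ends of 3R inside a Dll peak (vertical axis) against a shift in bp added to the gene ends after the stated release difference was subtracted (horizontal axis), for low-coordinate and high-coordinate ends. The maxima lie 300 bp and 380 bp inside the gene on opposite sides of 0.

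The highest peak of the locus lay on the low-coordinate end of ttk. It spanned 27538184 to 27539999 on 3R, was 1816 bp wide and had a score of 741.46. Of its bases, 411 lay inside ttk and 1405 outside, and its midpoint was 497.5 bp from the end of the gene. It ranked 6 in the whole list and 2 on 3R. Only 3 peaks of 3R scored 500 or more, and the nearest other one was 5482 kb away. In width it stood among the broader peaks of its kind, since 59 of the 162 peaks in the top 1% by score were as wide or wider and their median was 1335 bp.

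Within ttk, which spans 21.5 kb in the gene table and has 8 RefSeq transcripts there, peaks lay in the low-coordinate part of the gene. Besides the peak on its end, 4 further peaks lay inside. The one at 27542602 to 27544347 had a score of 69.34 and its midpoint 3.89 kb into the gene. The next, at 27545240 to 27545589, was small with a score of 14.14. A peak at 27547303 to 27548180 scored 30.9. The strongest of the 4 lay at 27550110 to 27551889, 11.4 kb from the low-coordinate end, with a score of 252.07 over 1780 bp. That peak falls at the middle of the gene, 53.0% of the way from the low end. From there to the high-coordinate end, 9.23 kb or 42.9% of ttk held no peak in the list.

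Below ttk lay a region with few coding sequences and many peaks. Between the protein-coding genes CG11550 and CG42693 the gene table places only noncoding RNAs over 27.99 kb. This interval held 15 peaks, which covered 45.4% of its length, with scores from 8.88 to 306.64 and a median of 17.55. On 3R, 249 intervals between protein-coding genes are 10 kb or longer. Of these, 8 held 15 peaks or more, 10 held as many peaks per 10 kb and 6 were covered by peaks to at least the same share, the interval itself included each time. It had 5.36 peaks per 10 kb, against a median of 0.510 over the 249 intervals, whose median length was 18.5 kb. The interval holds 15 of the peaks of a locus that was chosen on its peak number, so nothing is read from these ranks.

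Strong and weak peaks lay side by side in the interval. The strongest, at 27514585 to 27515630, scored 306.64 over 1046 bp and lay 24.0 kb from the highest peak. It contained the whole of lncRNA:CR45565, a long noncoding RNA of 751 bp whose function is not given here. The peak before it, at 27512274 to 27514244, scored 53.3 and covered 99.3% of lncRNA:CR45564. Farther from ttk, the peak at 27506647 to 27509857 was the widest of the locus with 3211 bp and a score of 76.26, and it held an end of lncRNA:CR44091. Only 18 of the 1780 peaks of the list with a score within 1.5 times of that value were as wide or wider, and the median width of the 1780 was 777.5 bp. Among these peaks lay also weak ones of 13.22 and 11.53, and a peak at 27517543 to 27518103 scored 57.68. Nearer to ttk, a peak of 2209 bp at 27522696 to 27524904 scored 96.15. After it, up to the peak on the end of ttk, the 9 remaining peaks scored between 8.88 and 19.44.

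Above ttk the locus was poorer in peaks. The longest stretch without a peak, 19.2 kb, began inside ttk and took in 5 whole protein-coding genes. These were CstF50, a subunit of a factor that stimulates cleavage of messenger RNA ends, eEF1alpha2, a translation elongation factor, Tbca, a cofactor in tubulin folding, and CG11563 and CG1896. Of the gaps between neighbouring peaks on 3R, 7.02% were as long or longer. Next came a peak of 598 bp inside awd, the gene for nucleoside diphosphate kinase, with a score of 24.15, and then a peak on an end of CG1910 at 27573325 to 27574237 with a score of 91.87. Another stretch without a peak, 15.0 kb long, took in salt, CG2187 and Smvt, the last a gene for a sodium-dependent vitamin transporter. At and beyond CG2150 lay 4 weak peaks with scores from 12.8 to 23.07.

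Counted by midpoint, the 39.6 kb of the window below ttk held 18 peaks or 4.55 per 10 kb, ttk itself held 4 or 1.86 per 10 kb, and the 38.9 kb above held 6 or 1.54 per 10 kb. Peaks covered 38.3% of the sequence below, 24.0% of ttk and 9.37% of the sequence above. The highest peak counts as below ttk by this measure, since its midpoint lies just outside the gene. The window boundaries did not divide a cluster. The first peak inside was the one on CG11550 at 27505202 to 27506113 (score 57.7), and the nearest peak outside lay at 27492612 to 27492968 (7.55). At the other end the last peak inside lay at 27593790 to 27594103 (13.26), and the next outside at 27602839 to 27604507 (141.3).

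**Figure D2:**
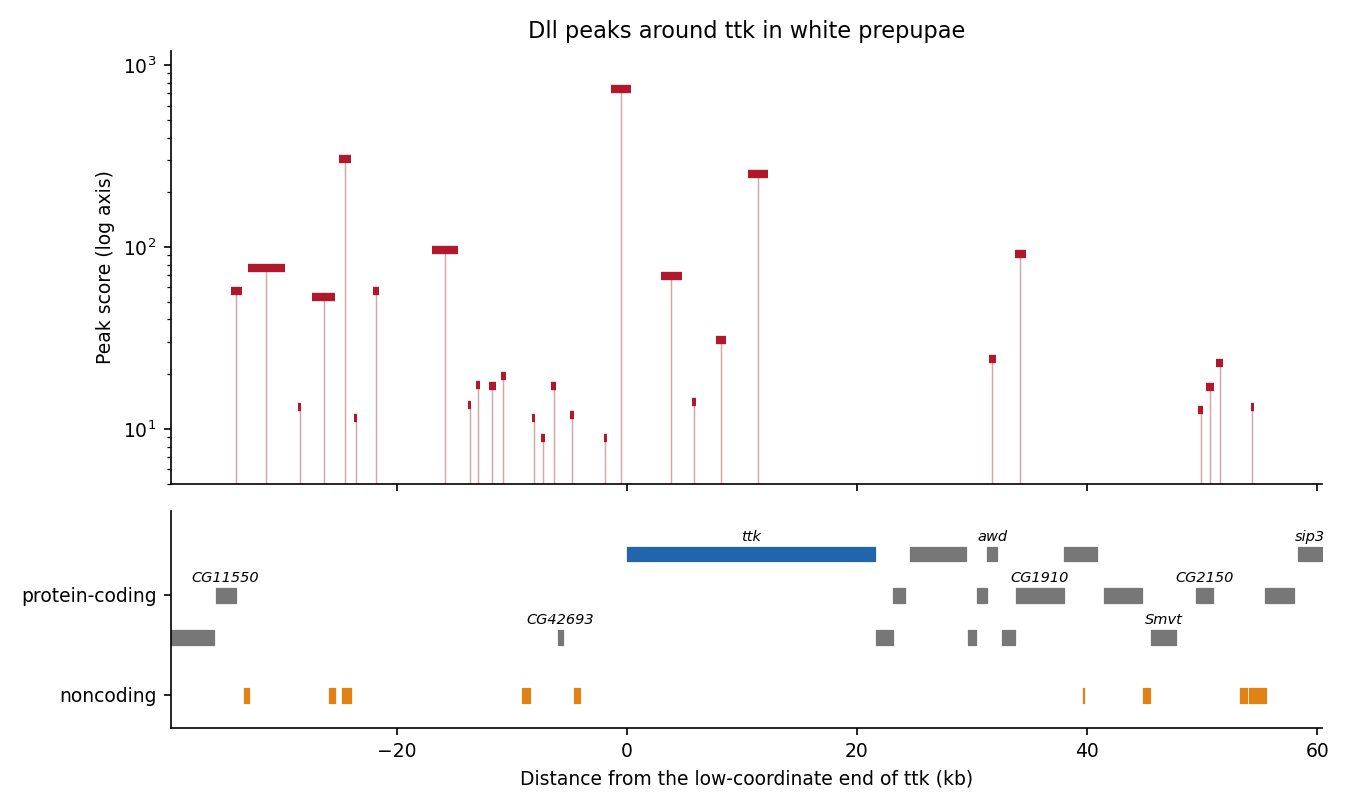
Dll peaks of the window by score (upper panel, log axis), each drawn as a bar over its own width, and gene spans (lower panel, ttk in blue, other protein-coding genes in grey, noncoding RNAs in orange) against the distance in kb from the low-coordinate end of ttk. The highest peak (741.46) sits on that end, peaks are dense below it, and a stretch of 19.2 kb without a peak begins inside ttk.

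Taken as a 100 kb window, the locus combined many peaks with a very high one. It was compared with the 1185 whole 100 kb windows of 2L, 2R, 3L, 3R and X laid from position 0. The ttk window held 28 peaks against a median of 12 over all windows (interquartile range 6 to 18), and 7.93% of windows held at least as many. Its highest score, 741.46, stood against a median of 120.8 over the 1122 windows with a peak, and 5 windows, or 0.446%, reached it, the ttk window among them. Only 3 windows had both as many peaks and as high a score, again with ttk included. Of the 21 windows with a peak of 500 or more, 4 held more peaks than the ttk window, and their median number was 19 with a range from 4 to 39.

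Peaks covered 24.0% of the ttk window, against a median of 6.29% over all windows, and 41 windows reached that share. The typical peak of the locus was less unusual. The median score was 18.5, against a median of window medians of 16.74, and 39.6% of windows with a peak had as high a median. The median width was 558 bp, against 424 bp, with 15.7% of windows as high. The windows on either side held 13 and 17 peaks with highest scores of 61.57 and 141.3, and peaks covered 5.87% and 7.66% of them. The window 2 places below held 27 peaks covering 21.0%, but its highest score was 147.12.

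**Figure D3:**
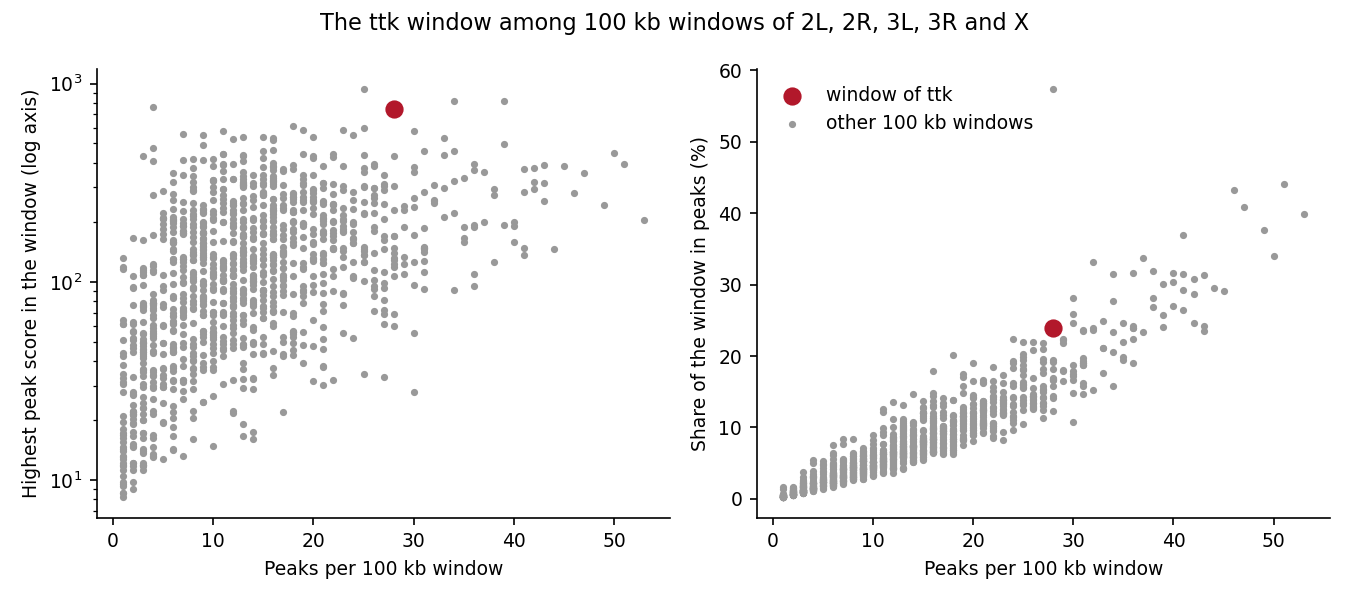
Highest peak score (left, log axis) and share of the window in peaks in percent (right) against the number of peaks, for 100 kb windows with at least 1 peak on 2L, 2R, 3L, 3R and X. The ttk window (red) has 28 peaks, a highest score of 741.46 and 24.0% of its length in peaks.

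Scores within the locus were spread unevenly. Of the 28 peaks, 15 scored under 20, 10 scored from 20 to under 100 and 3 scored 100 or more. The interquartile range was 13.25 to 60.6. In the top 10% of the list, which begins at a score of 85.2, were 5 of the 28 peaks (17.9%), against 10.1% of the 15615 peaks of the 5 large arms. These were the peaks on the end of ttk, at lncRNA:CR45565, in the middle of ttk, in the coding-free interval at 27522696, and on CG1910. Since the locus was chosen on its scores, nothing is read from that share. The first 2 of them were also in the top 1%, which begins at 302.7. In all, 22 of the 1185 windows, the ttk window included, held 2 or more peaks of the top 1%. Beyond the window, the nearest peak of 3R in the top 1% was 1263 kb away from the highest peak.

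Widths ran from 241 to 3211 bp with an interquartile range of 358 to 946 bp. Wider than 1000 bp were 7 of the 28 peaks (25%), against 12.2% of the peaks of the large arms. Width went with score, with a Spearman correlation of 0.876 across the 28 peaks and of 0.708 across the list. These are correlations across peaks of 1 list, which share their libraries and depth. As the locus was chosen on its scores, nothing is read from its share of wide peaks. The lowest peaks, at 8.88 and 8.96, were 381 and 253 bp wide, and the 3 highest were 1816, 1046 and 1780 bp wide. Neighbouring peaks lay close together. The median gap was 967 bp, and 14 of 27 gaps (51.9%) were 1000 bp or shorter, against 34.7% of the gaps on 3R. Many peaks in a window leave short gaps, and the locus was chosen on its peak number, so nothing is read from that difference. Joining peaks across gaps of up to 1000 bp left 14 regions, of which 7 were single peaks. The largest region joined 5 peaks from 27522696 to 27529074 and the next joined 4 from 27511049 to 27516183.

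**Figure D4:**
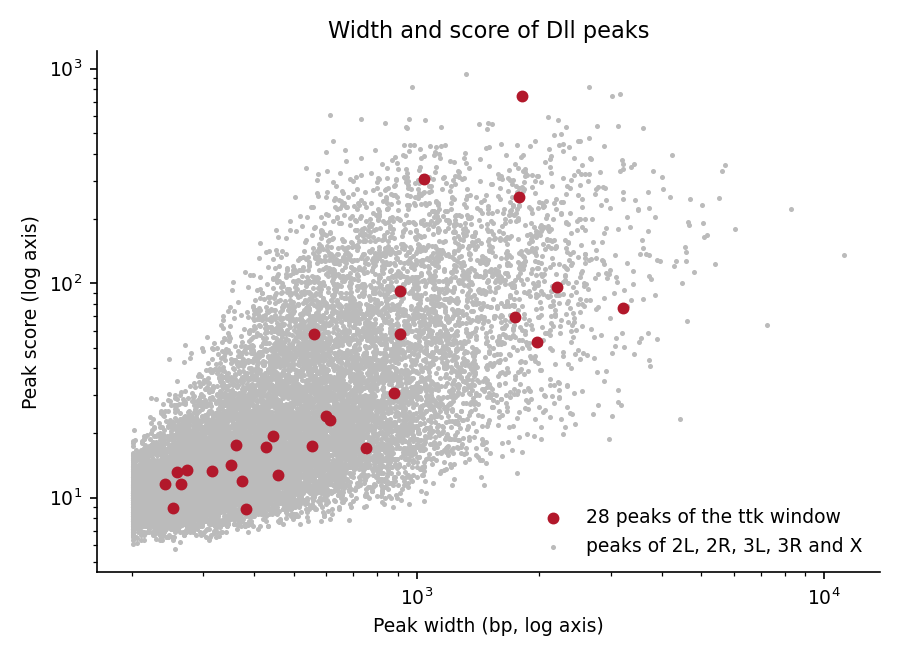
Score (log axis) against width in bp (log axis) for the 28 peaks of the ttk window (red) and for the peaks of 2L, 2R, 3L, 3R and X (grey). The locus runs from narrow, low peaks at 8.88 to the peak of 741.46 at 1816 bp, with the widest peak (3211 bp) at a score of 76.26.

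Place relative to genes is given as a description too, since the locus was chosen with its highest peak beside ttk, and that peak is among those counted over a gene end. Of the 28 peaks, 7 (25%) held an end of a gene, against 12.8% of the 4134 peaks of 3R. Another 14 (50.0%) lay between genes, against 19.7% on 3R, and 7 (25%) lay inside a gene without reaching an end, against 67.4%. All but 1 of the 14 peaks between genes lay below ttk. Peaks over gene ends had a median score of 76.26 in the window and of 41.5 on 3R. Peaks inside genes had medians of 24.15 and 14.94, and peaks between genes had 15.36 in the window and 17.03 on 3R. Neither class tells which gene a bound site acts on.

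Of the 18 protein-coding genes that reach into the window, 5 were overlapped by a peak (CG11550, ttk, awd, CG1910 and CG2150), against 36.2% of the 3398 protein-coding genes of 3R. Of its 7 long noncoding RNAs 3 were overlapped, against 30.5% of the 430 on 3R. One of the 3, lncRNA:CR45565, lay wholly inside a peak, as did 20 of the 430 (4.65%). Among protein-coding genes of 3R, ttk and CG12290 were the 2 with an overlapping peak of 741.46 or more. The number of peaks over ttk, 5, was reached by 181 genes (5.33%). As a longer gene has room for more peaks, ttk was also set beside the 344 protein-coding genes of 10 to 40 kb. Their median was 3 peaks, 105 of them had 5 or more, and 45 had none. The median of the highest score in those with a peak was 48.1.

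Genes of 3R that act with Ttk or in the same cell fate decisions in flies, or that share its BTB domain, were examined by their peaks within 5 kb of the gene. The 13 genes were listed with results of these data known. All 13 had a peak in that range, against 74.6% of the protein-coding genes of 3R, and 8 had a peak in the top 10% of the list, against 16.2%. The listed genes are long, with a median of 19.1 kb against 2.11 kb on 3R. Of the 8 that are 10 kb or longer, 7 had such a peak, against 39.7% of the 453 protein-coding genes of 10 kb or longer. The 8 ran from 14.6 kb at CtBP to 131 kb at fru, while 344 of the 453 are 10 to 40 kb. Length was thus not matched, and the list was made with results known, so nothing is read from these shares. The highest score within 5 kb was 741.46 at ttk, the peak for which the locus was chosen. Over the 13 genes the median was 95.68 and the range 13.56 to 357.76.

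Among genes of cell signalling, Delta (Dl), which encodes a ligand of Notch, had 11 peaks with a highest score of 357.76. The ubiquitin ligase gene neuralized (neur), needed for Delta to signal, had 2 peaks with a highest score of 20.86. Hairless (H), the gene for a co-repressor of Notch targets, had 5 with 24.16. The gene pointed (pnt), an effector of EGF receptor signalling, had 17 peaks with a highest score of 314.64. At musashi (msi), whose RNA-binding protein holds back translation of ttk messenger RNA in sensory organs, the highest of 11 peaks scored 249.81. The highest score of each of these genes was below the 741.46 of ttk. Nothing is read from this, since the locus was chosen for that peak.

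Ttk represses ftz, tailless (tll) and string (stg) in flies. At ftz the highest of 2 peaks scored 25.78, and at tll, a gap gene of the embryo ends, the highest of 2 scored 13.56. The mitotic phosphatase gene stg had 8 peaks within 5 kb with a highest score of 95.68, or 5.72 peaks per 10 kb, against 2.22 at ttk. Among genes of neural and eye cell fate, prospero (pros) had 19 peaks up to 143.83 and svp, a nuclear receptor gene, had 11 up to 177.82. The co-repressor gene CtBP had 3 peaks, the highest at 87.14, which is just inside the top 10%. Of the other BTB genes listed, fruitless (fru) had 24 peaks up to 147.12 over 131 kb, and mod(mdg4) had 5 up to 43.14. The median over the 13 genes was 2.04 peaks per 10 kb, so in peak density ttk was near the middle of the list. Over the protein-coding genes of 3R the median was 0.939. Length was not matched and the list was made with results known, so nothing is read from that difference.

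**Figure D5:**
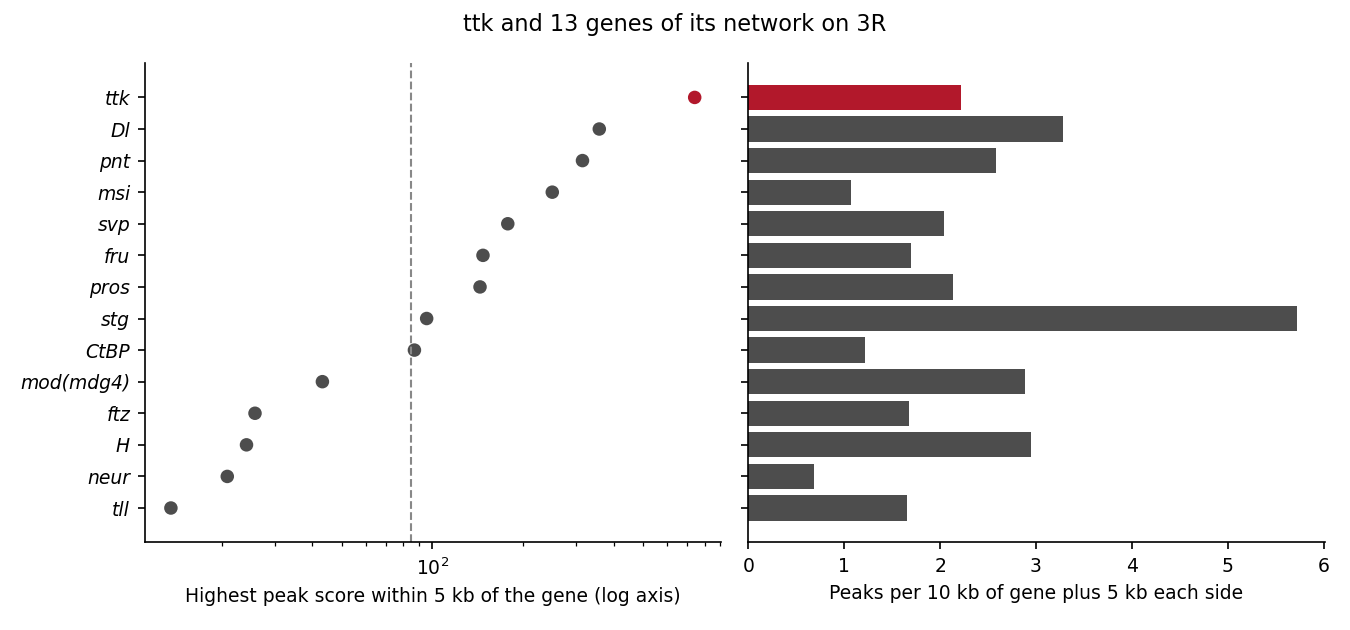
Highest peak score within 5 kb of each gene (left, log axis, dashed line at the start of the top 10% of the list) and peaks per 10 kb of the gene plus 5 kb on each side (right) for ttk (red) and 13 listed genes of 3R, ordered by highest score. The score of ttk, 741.46, is followed by 357.76 at Dl, while stg has the most peaks per 10 kb (5.72).

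Windows of 100 kb centred on 3 limb or signalling genes of 3R, a comparison that was not planned, gave a similar number of peaks. Their maxima were lower, but the locus of ttk was chosen for its highest peak, so nothing is read from that. The window centred on ttk held the same 28 peaks, that on Dl held 26, that on hedgehog (hh), the signal of posterior compartments, held 22, and that on spineless (ss), a gene of distal antenna and tarsus, held 35. The 3 genes were picked, and each had more peaks around it than the median of 12 over 100 kb windows of the large arms. Nothing is therefore read from the similar number. Peaks covered 24.0% around ttk, 20.6% around Dl, 16.5% around hh and 23.2% around ss. The highest scores were 741.46 at ttk, 357.76 at Dl, 147.34 at hh and 91.19 at ss. Median scores were 18.5 at ttk, 30.2 at Dl, 20.0 at hh and 17.87 at ss. Of the peaks in the top 10% of the list, 5 lay around ttk, 7 around Dl, 4 around hh and 1 around ss. Among the 4 windows ttk had the highest maximum, ss had the most peaks and Dl had the highest median score, and none of these differences was tested.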

How the data were processed

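The submitters' processing notes name CASAVA (1.7.0.2, 1.7.0.3), then BWA, MACS2 and build BDGP 5. The sources used here do not give the calling threshold, filters or pooling of replicates. Per the file headers, the deposited list is in GFF version 3 on FlyBase release 5, and the authors gave each peak 1 score without naming a scale. A region that missed their threshold is not in it.

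Widths (end minus start plus 1), windows by midpoint, gaps, merged regions (1000 bp) and overlaps with gene spans (1 bp or more) were computed in Python 3.11.15 with numpy 2.4.6, pandas 2.3.3 and scipy 1.17.1. Window counts, covered share, merging and the classes of place relative to genes were tested on simulated data, and the other measures were not. Gene ends replaced the planned gene starts, because the gene table holds no strand. Gene spans were to be used only if the count of gene ends in peaks passed a check, which it did not, and the mirror-image check added afterwards was relied on. The planned motif search was not run. The locus and the gene list were chosen with earlier results of these data known. Named genes are ttk, those with an end inside a peak, the nearest to the 5 highest peaks and the list. Other genes of the window were named after their values were seen. Alternatives were the place of the window, a stricter score, merging, overlap and distance to gene ends.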

Additional observations from a re-analysis of the deposited data

How the results depend on the processing

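Of 38 alternative values for 9 results, 24 stayed near the value reported (the peak number and covered share within 1.5 times, shares of peaks or windows within a 95% Wilson interval, medians within a 95% interval from the ranks of the 28 peaks by the binomial distribution, and the highest score only if equal; these intervals cover counting error only) and 14 moved. With the highest 50% and 25% of peaks by score, the window held 16 and 10 peaks, with median scores of 57.69 and 84.1 and median widths of 912.5 and 1763 bp, as a stricter score does by construction. Merging peaks within 1000 bp left 14 regions, with a median score of 63.51, as each keeps its highest score, and a median width of 1936 bp. The share of windows with at least as many peaks, 7.93%, was 4.14% among the highest 25% of peaks and 9.71% on 3R alone. On a grid shifted by 50 kb, the window on the low side held 29 peaks and the peak of 741.46. The window on the high side held 14 peaks with a highest score of 252.07, since most peaks of the locus lie below it, and there 42.4% of windows had as many peaks and 18.7% as high a score. With a gene end within 500 bp in place of inside the peak, 53.6% of the window's peaks counted, against 25%. The share of all peaks of 3R at that distance is not given here, so the 53.6% cannot be set against 3R. The highest score is 741.46 in its 5 alternatives by construction, as none of them can remove that peak. The window centred on ttk and membership by overlap hold the same 28 peaks, since no peak lies close to the window boundaries. Number, covered share and medians could therefore not move under these 2 settings. The grid that matches the centred window lies close to that of the rule, so its shares of windows could hardly move. Such agreement is no sign of robustness. No paired analysis was possible because the list gives no values per library, and for the same reason no replicate could be left out. Unknown depth limits how far an absent or low peak can be read.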
